A study of Mus musculus with 12 samples.

Results

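The 10 genes described here form the core of the circadian clock and its closest output: Clock, Arntl, Per2, Per3, Cry1, Cry2, Ciart, Nr1d1, Nr1d2 and Dbp. They were chosen by symbol, and all 10 were found among the 31208 genes of the table. RNA came from the brains of 12 male C57BL/6 mice aged 8 weeks, 4 sham mice, 4 ischemic mice given vehicle and 4 ischemic mice given lactate. Ischemia was made by occlusion of the middle cerebral artery (MCAO) and brains were taken 6 h later, and lactate or sterile saline had been injected into a brain ventricle the day before the surgery. The methods name D-lactate, the labels only lactate, and an injection of the sham mice is not given in the sources used here. Whole cDNA molecules were copied by PCR and read from end to end on a nanopore sequencer. The authors deposited the number of reads per gene, between 6815920 and 10677224 per mouse in total, and the same values scaled to the library total (CPM). Mice were kept on a light and dark cycle, but the hour at which tissue was taken is not given in the sources used here. An hour that differed between groups cannot be told apart from an effect of the surgery or the injection.

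The circadian clock is a feedback loop of transcription. CLOCK pairs with BMAL1, the product of Arntl, and the pair binds E-boxes in DNA and activates the Per and Cry genes, Nr1d1, Nr1d2, Ciart and Dbp. PER and CRY proteins and the product of Ciart repress that pair, REV-ERB proteins (from Nr1d1 and Nr1d2) repress Arntl through ROR elements, and DBP activates genes through D-boxes. Most of these transcripts cycle over the day in many tissues, the brain included, with Arntl in the opposite phase to Dbp and Nr1d1.

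RefSeq promoter windows of GRCm38.p6, from 250 bases before to 50 bases after a transcription start, were given for 9 of the 10 genes, all but Per2. They were searched on both strands for the E-box CACGTG, the E-prime box CACGTT, the D-box TTATGTAA or TTACGTAA, and the core of the ROR element TAGGTCA or TGGGTCA. An E-box and an E-prime box cannot match at the same bases. The windows of the 3 genes that passed the test below are printed, with that of Per3 for its 2 D-boxes. Arntl has 2 windows, from starts close to each other, and the one with a match is shown. Each runs 5′ to 3′ on the strand of the gene, and capitals mark the matches.
Arntl, chr7:113207261-113207560, plus strand: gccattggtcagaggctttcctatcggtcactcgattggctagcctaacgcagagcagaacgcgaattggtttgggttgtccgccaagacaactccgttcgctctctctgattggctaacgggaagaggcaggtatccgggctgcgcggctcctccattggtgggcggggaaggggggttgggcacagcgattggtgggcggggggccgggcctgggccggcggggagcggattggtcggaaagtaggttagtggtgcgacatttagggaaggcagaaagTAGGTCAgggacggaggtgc
Per3, chr4:151044616-151044915, minus strand: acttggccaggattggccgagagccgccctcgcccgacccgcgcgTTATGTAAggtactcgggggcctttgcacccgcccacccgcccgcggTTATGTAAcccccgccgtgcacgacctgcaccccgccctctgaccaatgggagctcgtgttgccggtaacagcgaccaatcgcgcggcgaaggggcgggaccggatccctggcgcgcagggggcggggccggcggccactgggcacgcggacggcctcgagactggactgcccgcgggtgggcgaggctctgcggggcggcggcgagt
Ciart, chr3:95882179-95882478, minus strand: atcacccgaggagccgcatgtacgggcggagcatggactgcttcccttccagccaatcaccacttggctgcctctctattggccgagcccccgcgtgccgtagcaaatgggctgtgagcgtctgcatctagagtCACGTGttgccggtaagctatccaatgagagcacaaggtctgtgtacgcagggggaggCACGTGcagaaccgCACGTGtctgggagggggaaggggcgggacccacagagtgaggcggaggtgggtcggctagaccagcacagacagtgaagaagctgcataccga
Dbp, chr7:45704997-45705296, plus strand: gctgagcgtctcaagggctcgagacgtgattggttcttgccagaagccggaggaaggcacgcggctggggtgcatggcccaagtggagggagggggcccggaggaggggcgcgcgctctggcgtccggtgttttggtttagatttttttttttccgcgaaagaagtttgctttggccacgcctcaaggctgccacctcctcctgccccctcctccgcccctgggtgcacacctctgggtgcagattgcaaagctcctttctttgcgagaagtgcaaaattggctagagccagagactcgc
The Ciart window held 3 E-boxes, 116, 58 and 44 bases before the start, and 7.15% of all 32851 windows held at least 1. The Arntl window shown held 1 ROR core 30 bases after its start, letters found in 6.45% of all windows. The other Arntl window (chr7:113207215-113207514) held no match. The 2 D-boxes of Per3 lay 205 and 158 bases before the start, and 1.06% of windows held any. Cry1 held an E-box 60 and an E-prime box 79 bases before the start, Cry2 an E-prime box 166 bases and Nr1d1 an E-prime box 28 bases before it (E-prime box in 4.68% of windows). In the windows of Dbp, Clock and Nr1d2 none of these letters occurred. A match of letters is a description of the sequence and was not tested for binding.

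Against sham, Arntl, Ciart and Dbp fell in the ischemic brains given lactate, and the other 7 genes did not pass the test. In the ischemic brains given vehicle none of the 10 passed, and Dbp read low in 3 of the 4 mice. Between the ischemic groups none passed either, while Ciart was lower with lactate in every mouse. A gene was called at an adjusted p under 0.05 in the quasi-likelihood test of edgeR, adjusted by Benjamini-Hochberg across every gene that entered the fit, and "SE" is the standard error of the fitted log2 fold change. Labels call the mice of a group replicates, and p-values measure the spread between these mice. Both comparisons with sham share the sham mice. The library of vehicle mouse 1 stood apart over all genes. Over 13799 to 14153 genes its counts differed from those of the other vehicle mice by a mean chi-square per gene of 37.9 to 42.6, against 17.2 to 19.6 among those 3. It was also the deepest library, with 10677224 reads against 6815920 to 8032898 in the other vehicle mice. The chi-square was taken on counts that were not brought to equal depth. Values without this mouse are given beside those of Arntl, Per2, Per3 and Dbp, in which it weighed most.

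**Figure D1:**
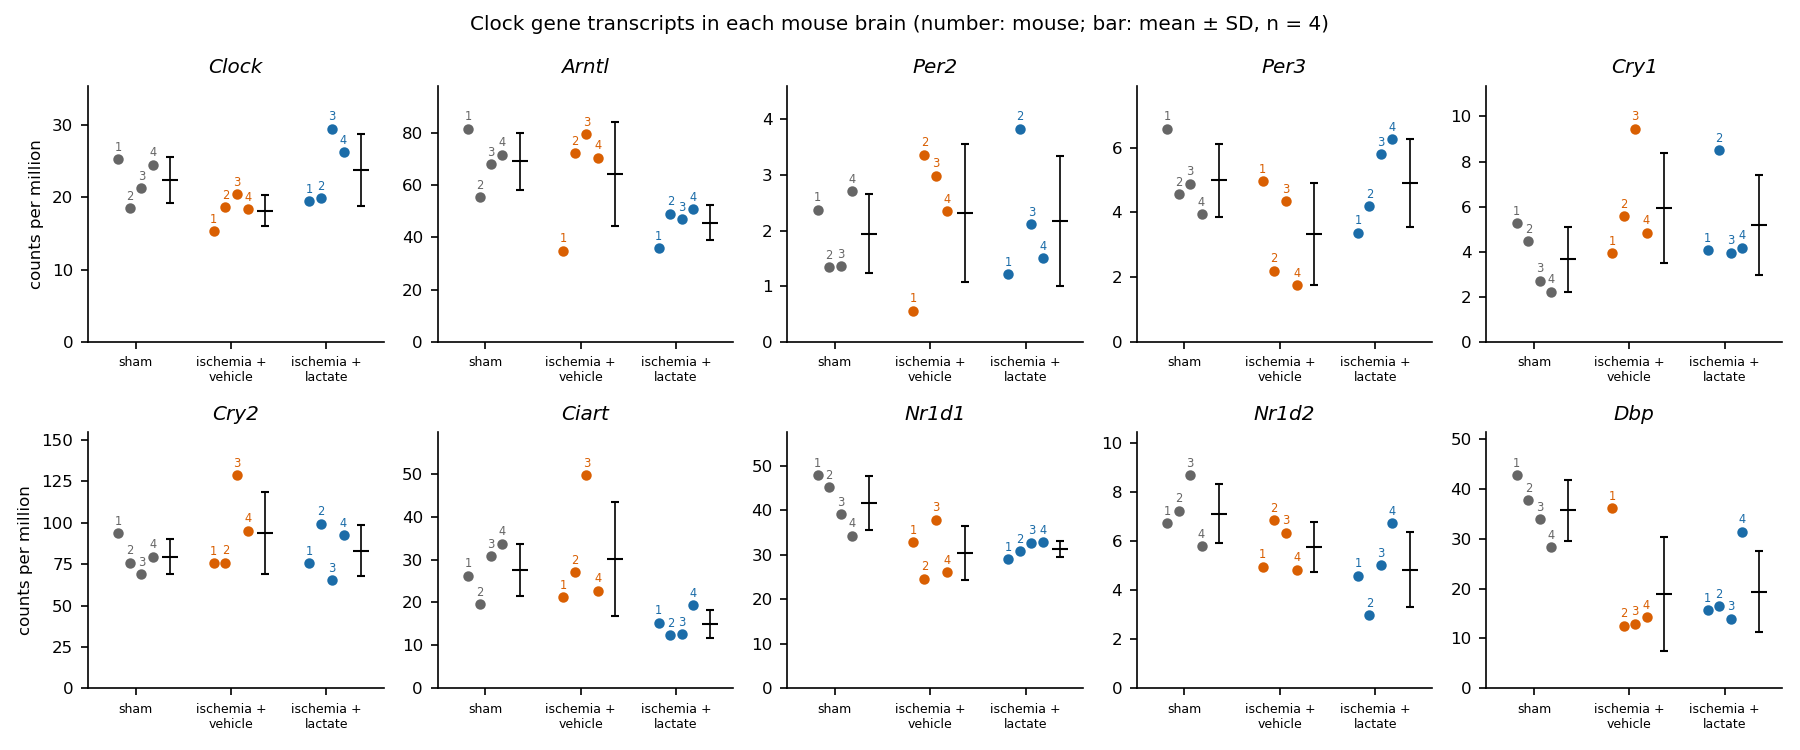
Each panel plots the CPM of 1 clock gene (vertical axis, from 0) in the 4 mice of each group, numbered by mouse, with the mean and SD as a bar to the right. Ciart lay below every sham and every vehicle mouse in all 4 lactate mice, and Dbp separated vehicle mouse 1 and lactate mouse 4 from the other ischemic mice.

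Arntl, the partner of CLOCK in the activating pair, fell with lactate against sham. Its level in sham mice 1 to 4 was 81.6, 55.3, 68.0 and 71.7 CPM. In vehicle mice 1 to 4 it was 34.9, 72.3, 79.5 and 70.6 CPM. In lactate mice 1 to 4 it was 35.8, 49.1, 46.9 and 50.8 CPM. All lactate mice lay below all sham mice, while in the vehicle group only mouse 1 lay below the sham range. The log2 fold change with lactate against sham was -0.56 (SE 0.14, 1.48-fold lower, n = 4 per group) with an adjusted p of 0.0183 in edgeR with Benjamini-Hochberg adjustment. The same test gave 0.0587 without sham mouse 1, 0.0501 without sham mouse 4 and 0.109 with all 12 mice in 1 fit, where the call was lost. Vehicle against sham gave -0.07 (SE 0.22), and 0.14 without vehicle mouse 1. Lactate against vehicle gave -0.51 (SE 0.23), with an adjusted p of 0.554 in edgeR with Benjamini-Hochberg adjustment and a 95% interval of -1.004 to -0.0139, and -0.71 without vehicle mouse 1.

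Clock, the other member of the pair, read 25.3, 18.5, 21.3 and 24.5 CPM in the sham mice. In the vehicle mice it read 15.4, 18.6, 20.4 and 18.3 CPM, and in the lactate mice 19.5, 19.9, 29.5 and 26.3 CPM. The 3 groups overlapped. The log2 fold change was -0.27 (SE 0.17) for vehicle and 0.12 (SE 0.16) for lactate against sham, and 0.37 (SE 0.18) between lactate and vehicle. Without lactate mouse 3 the value with lactate against sham was 0.0073. The adjusted p values in edgeR with Benjamini-Hochberg adjustment lay between 0.517 and 0.697.

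Of the 5 repressors, only Ciart, whose product binds BMAL1 and blocks its activity, passed the test in any comparison. Its level was 26.2, 19.6, 30.8 and 33.7 CPM in sham mice 1 to 4. Vehicle mice 1 to 4 had 21.2, 27.1, 49.7 and 22.7 CPM, and lactate mice 1 to 4 had 15.3, 12.3, 12.7 and 19.4 CPM. The highest lactate mouse lay just below the lowest sham mouse and below every vehicle mouse, while sham and vehicle mice overlapped. Against sham, Ciart fell by 0.85 on the log2 scale with lactate (SE 0.19, 1.80-fold lower, adjusted p = 0.0126 in edgeR with Benjamini-Hochberg adjustment). This call held with any 1 mouse left out, with an adjusted p of at most 0.0436, but all 12 mice in 1 fit gave 0.0510. Lactate against vehicle gave a log2 fold change of -1.03 (SE 0.27, 2.04-fold lower), with an unadjusted p of 0.00263 and an adjusted p of 0.460 in edgeR with Benjamini-Hochberg adjustment (0.0742 in DESeq2). Without vehicle mouse 3, the highest of the 12, that value was -0.69. Vehicle against sham gave 0.16 (SE 0.26), and -0.18 without vehicle mouse 3.

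Per2, Per3, Cry1 and Cry2, classical repressors of the loop, did not pass the test in any comparison. Per2 was counted 6 to 32 times per mouse, between 0.562 CPM in vehicle mouse 1 and 3.83 CPM in lactate mouse 2. Sham mice had 2.37, 1.34, 1.36 and 2.71 CPM of Per2, the other vehicle mice 3.37, 2.99 and 2.35 CPM, and the other lactate mice 1.22, 2.11 and 1.51 CPM. At this depth the 95% interval of vehicle against sham for Per2 ran from -0.76 to 1.28 on the log2 scale, which includes both no difference and a level over 2-fold higher. The fitted value was 0.26 (SE 0.47), 0.62 without vehicle mouse 1 and 0.02 without vehicle mouse 2. Between lactate and vehicle Per2 gave -0.08 (SE 0.51), and -0.43 without vehicle mouse 1. Per3 was counted 12 to 54 times per mouse and read 6.59, 4.57, 4.89 and 3.95 CPM in the sham mice. Vehicle mice 1 to 4 had 4.96, 2.20, 4.36 and 1.76 CPM of Per3, and lactate mice 3.38, 4.19, 5.80 and 6.26 CPM. Vehicle mice 2 and 4 lay below every other mouse for Per3, and the groups overlapped. The log2 fold change of Per3 was -0.52 (SE 0.33) for vehicle against sham, 0.01 (SE 0.25) for lactate against sham and 0.52 (SE 0.36) for lactate against vehicle. Without vehicle mouse 1 the first and last were -0.79 and 0.80, and without vehicle mouse 4 they were -0.32 and 0.32.

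Cry1 read 5.27, 4.46, 2.72 and 2.22 CPM in sham mice, 3.93, 5.57, 9.46 and 4.84 CPM in vehicle mice and 4.06, 8.50, 3.96 and 4.17 CPM in lactate mice. Vehicle mouse 3 and lactate mouse 2 stood above the rest, and the groups overlapped. The log2 fold change of Cry1 was 0.72 (SE 0.34) for vehicle against sham, with an unadjusted p of 0.0543 and an adjusted p of 0.375 in edgeR with Benjamini-Hochberg adjustment. Against sham it was 0.53 (SE 0.33) with lactate. Without vehicle mouse 3 the value with vehicle was 0.42, and without lactate mouse 2 the value with lactate was 0.18. Cry2, which acts beside Cry1 in the PER and CRY complex, read 69.0 to 93.8 CPM in sham, 75.7 to 129 CPM in vehicle and 65.4 to 99.5 CPM in lactate mice. Its fitted log2 differences were 0.27 (SE 0.18) and 0.10 (SE 0.14) against sham and -0.19 (SE 0.19) between the ischemic groups. Without vehicle mouse 3 the first and last were 0.0932 and -0.0075, and the lactate value against sham ranged from 0.01 without lactate mouse 2 to 0.21 without lactate mouse 3. The Cry2 ranges overlapped throughout, with vehicle mouse 3 the highest.

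Nr1d1 and Nr1d2 encode the REV-ERB receptors of the second loop, which repress Arntl. Nr1d1 read 47.9, 45.1, 39.1 and 34.3 CPM in sham mice. It read 32.9, 24.6, 37.8 and 26.1 CPM in vehicle mice, and 29.1, 30.8, 32.7 and 32.8 CPM in lactate mice. All 4 lactate mice lay below the lowest sham mouse, and 3 of the 4 vehicle mice did. The log2 fold change against sham was -0.42 (SE 0.18) with vehicle and -0.38 (SE 0.13) with lactate. Neither passed the test, with adjusted p values of 0.317 and 0.0777 in edgeR with Benjamini-Hochberg adjustment, and unadjusted p values of 0.0350 and 0.0124. Between lactate and vehicle the difference was 0.02 (SE 0.17), with a 95% interval of -0.34 to 0.39. Nr1d2 read 6.73, 7.25, 8.69 and 5.80 CPM in sham, 4.96, 6.86, 6.35 and 4.84 CPM in vehicle and 4.60, 2.99, 5.01 and 6.73 CPM in lactate mice. Against sham its log2 fold change was -0.27 (SE 0.22) with vehicle and -0.52 (SE 0.25) with lactate, with overlapping groups. The vehicle value was -0.17 without sham mouse 3, and the lactate value -0.34 without lactate mouse 2. Exons of Nr1d1 share 263 bases with Thra on the opposite strand, and it is not stated whether reads were counted by strand. The counts of Nr1d1 can thus hold reads of Thra, which read 167 to 299 CPM. Exons of Cry2 share 295 bases with D930015M05Rik and those of Arntl 33 with Gm45355, also on the opposite strand.

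Dbp, a PAR bZIP factor that carries the rhythm of the loop to other genes, read lower in most ischemic mice. Its level in sham mice 1 to 4 was 42.7, 37.7, 34.0 and 28.2 CPM. Vehicle mice 1 to 4 had 36.1, 12.6, 12.9 and 14.2 CPM, and lactate mice 1 to 4 had 15.7, 16.5, 14.0 and 31.4 CPM. In each ischemic group 3 mice lay below every sham mouse, and vehicle mouse 1 and lactate mouse 4 lay within the sham range. With lactate, Dbp fell by 0.84 on the log2 scale against sham (SE 0.23, 1.79-fold lower, adjusted p = 0.0295 in edgeR with Benjamini-Hochberg adjustment). The adjusted p of the same edgeR test with Benjamini-Hochberg adjustment was 0.0608 to 0.0865 when sham mouse 1, 2 or 3 or lactate mouse 1, 2 or 3 was left out, and 0.129 with all 12 mice in 1 fit. Without lactate mouse 4 the log2 fold change was -1.17, with an adjusted p of 0.00150 in edgeR with Benjamini-Hochberg adjustment.

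With vehicle, the log2 fold change of Dbp against sham was -0.86 (SE 0.31, 1.81-fold lower), of nearly the same size as with lactate, but with a wider spread (unadjusted p = 0.0166, adjusted p = 0.250 in edgeR with Benjamini-Hochberg adjustment). Without vehicle mouse 1 it was -1.39, with an adjusted p of 0.00111 in edgeR with Benjamini-Hochberg adjustment, so the call for Dbp in the vehicle group turned on 1 mouse. Limma voom with quality weights gave -1.22 and an adjusted p of 0.0103 with all 8 mice. The fitted difference of Dbp between lactate and vehicle was 0.00 (SE 0.37), and its 95% interval of -0.82 to 0.81 spans changes of over 1.5-fold either way. Without vehicle mouse 1 the difference was 0.54. Exons of Dbp share 539 bases with Sphk2 on the opposite strand, which read 11.02 to 20.97 CPM, and its counts can hold reads of Sphk2 that lie within those bases, which are part of the 2993 exon bases of Dbp.

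**Figure D2:**
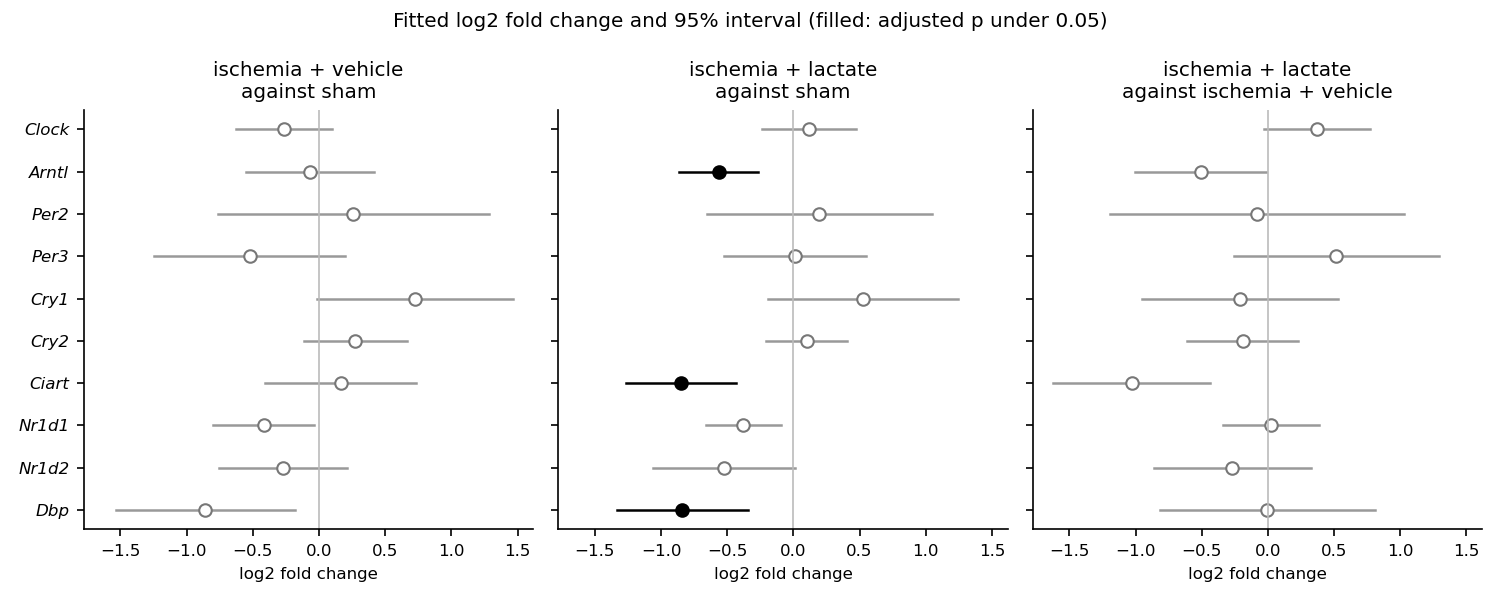
Fitted log2 fold changes of the 10 genes (points, horizontal axis) with 95% intervals (lines) in the 3 comparisons, filled where the adjusted p was under 0.05. Arntl, Ciart and Dbp are filled in lactate against sham alone, and the widest intervals belong to Per2, the gene with the fewest counts.

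As a group, 3 of the 10 clock genes were called lower and 0 higher in lactate against sham, where 12.3% of the 17262 genes tested were called in either direction and 3.54% were called lower. Groups did not overlap, with lactate lower, for Arntl, Ciart and Nr1d1, against 8.74% of all genes. An unadjusted p under 0.05 was reached by 4, Nr1d1 among them, against 27.0% of all genes. With sham mouse 1 left out, 1 clock gene was called lower, and with all 12 mice in 1 fit none was. In vehicle against sham 0 of the 10 were called by edgeR and 0 by DESeq2, beside 1 by limma voom (Dbp), and 1.47% of the 17019 genes tested were called. An unadjusted p under 0.05 was reached by Dbp and Nr1d1, against 13.8% of all genes. In lactate against vehicle 0 of the 10 were called by edgeR, DESeq2 or limma voom, against 0.00574% of 17419 genes, and Ciart and Arntl reached an unadjusted p under 0.05, as 8.84% of all genes did. Lactate and vehicle mice did not overlap for Ciart alone, where 1.83% of all genes were lower without overlap. With an unadjusted p under 0.05 and a change of at least 1.5-fold in place of the adjusted p, Dbp alone was lower in vehicle against sham (3.01% of all genes), Ciart and Dbp in lactate against sham (5.65%), and Ciart in lactate against vehicle (2.47%). The median log2 fold change of the 10 genes was -0.17, -0.18 and -0.14 in the 3 comparisons, in that order, beside 0.00, -0.03 and -0.03 over all genes.

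**Figure D3:**
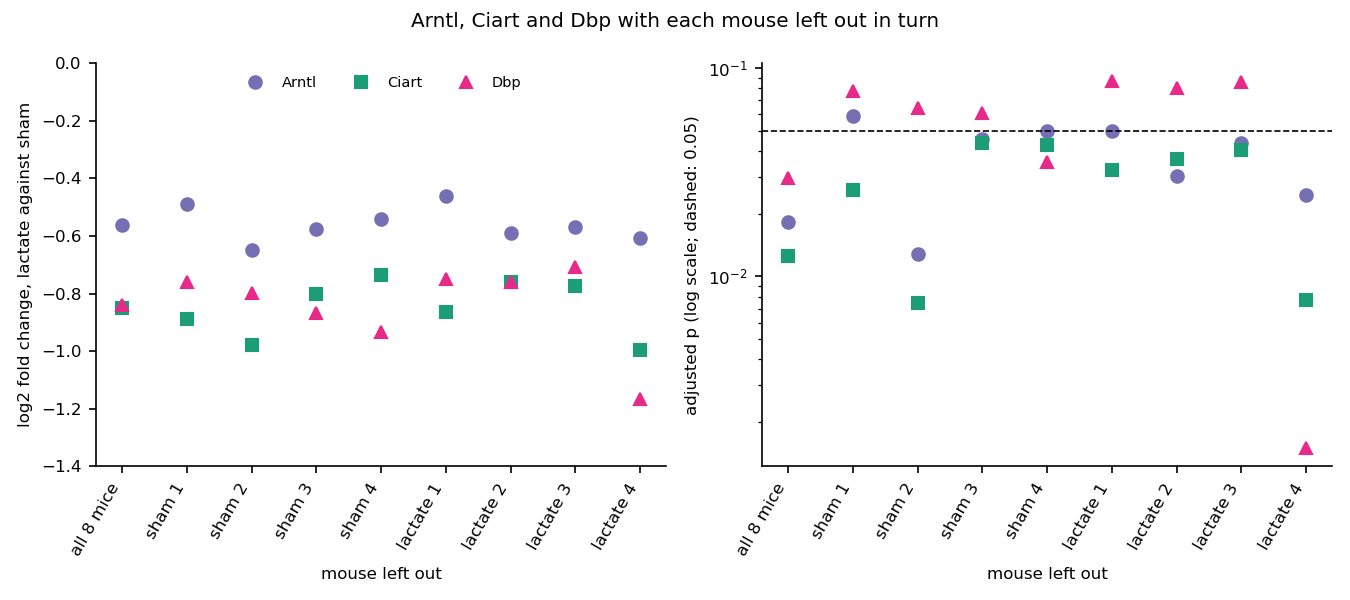
Log2 fold change (left) and adjusted p on a log scale (right, dashed line at 0.05) of Arntl, Ciart and Dbp in lactate against sham, with all 8 mice and with each mouse left out. Ciart stays under the line in all 9 fits, and Dbp is above it in 6.

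Within a library, the ratio of an output gene to an activator does not depend on scaling between mice. The ratio of Dbp to Arntl CPM was 0.523, 0.681, 0.499 and 0.394 in sham mice 1 to 4. In vehicle mice 1 to 4 it was 1.03, 0.174, 0.163 and 0.202, and in lactate mice 1 to 4 it was 0.438, 0.337, 0.298 and 0.619. Vehicle mice 2 to 4 had the lowest ratios of the 12 and vehicle mouse 1 the highest, and the lactate mice overlapped with sham. Nr1d1 to Arntl was also highest in vehicle mouse 1, with 0.941 there and 0.341, 0.476 and 0.370 in mice 2 to 4, between 0.478 and 0.817 in sham and 0.627 and 0.811 in lactate mice. Per3 to Clock was 0.323 in vehicle mouse 1 and 0.0960 to 0.213 in vehicle mice 2 to 4, against 0.161 to 0.260 in sham and 0.174 to 0.238 in lactate mice.

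**Figure D4:**
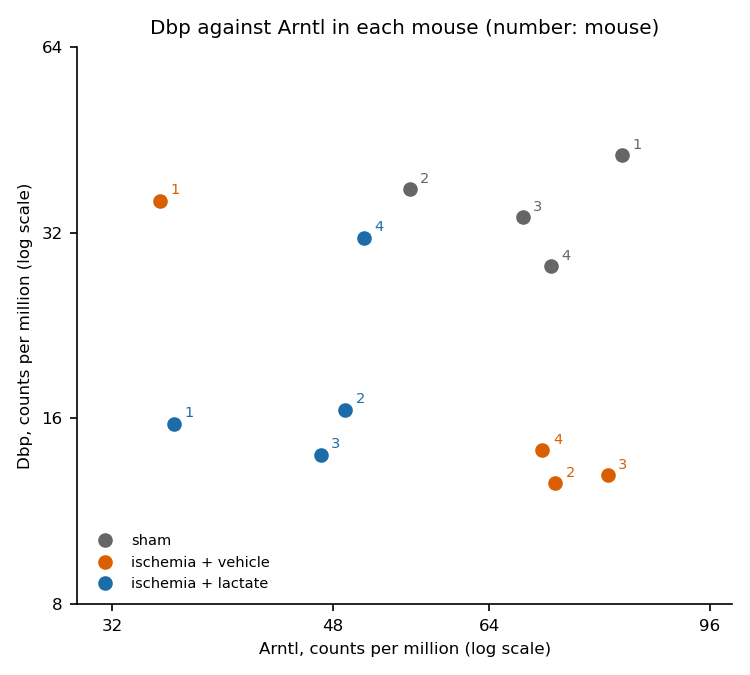
Dbp (vertical) against Arntl (horizontal) in CPM on log scales, 1 point per mouse, numbered by mouse and coloured by group. Vehicle mice 2 to 4 lie at high Arntl and low Dbp, vehicle mouse 1 at low Arntl and high Dbp, and lactate mice 1 to 3 are low in both.

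Vehicle mouse 1, the library that stood apart over all genes, also did so in Arntl, Dbp and Per2. On the scale of log2(CPM + 1) it carried 54.1% of the sum of squares within groups for Arntl, 45.0% for Dbp and 39.4% for Per2, where the median over 16520 genes was 10.96%. For Per3 it carried 20.2% and for the other 6 clock genes 3.81% to 11.5%, near or below that median. In that mouse Dbp lay 1.04 above its group mean on this scale, and Arntl and Per2 0.80 and 0.98 below theirs. Hlf, a PAR bZIP factor related to Dbp and picked after its values had been seen, read 82.9 CPM in vehicle mouse 1 and 30.1 to 40.3 CPM in vehicle mice 2 to 4. Within the vehicle group the summed markers of neurons (5578 CPM, against 3709 to 3952 CPM), hippocampus (286 CPM, against 202 to 221 CPM, mostly Ociad2), cortex (93.7 CPM) and striatum (451 CPM) were also highest in mouse 1. Among the hippocampal markers Ociad2 alone was highest in it, while Spink8 (0.0937 CPM) and Prox1 (1.31 CPM) were lowest. The sums of red blood cells (333 CPM, against 416 to 500.4 CPM), microglia (112 CPM) and astrocytes (9301 CPM, against 9561 to 11284.5 CPM) were lowest in mouse 1. The part of these differences in the clock gene values was not tested.

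The 5 genes most like Dbp, by Pearson's r of log2(CPM + 1) over the 12 mice after removing group means, were 3 loci without a reference gene, Cd2bp2 (r = 0.96) and Endod1 (r = 0.94). For Arntl they were Sf3b1 (r = 0.98), Oser1 (r = 0.96), Tmed10 (r = 0.95), a locus without a reference gene (r = 0.95) and Ctss (r = 0.94). No other clock gene was among either 5 of 16520 genes compared. With 11 mice, without vehicle mouse 1, none of the 5 of Dbp were left and Sf3b1 alone (r = 0.93) stayed among those of Arntl, so the lists turned on 1 library. The correlations describe these libraries, which differ in depth, and carry no test.

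Of 26 other genes of the clock pathway, 24 could be tested against sham and 23 between the ischemic groups. With vehicle 1 was called higher (Per1) and 0 lower against sham, where 1.29% of all genes were called higher. With lactate 1 was called higher (Nfil3) and 1 lower (Rorb), where 8.76% and 3.54% of all genes were. None were called in lactate against vehicle by edgeR, where Per1 alone had an unadjusted p under 0.05, and DESeq2 called Per1. None of the 9 tested kinases and ubiquitin ligases that set the stability of PER and CRY proteins, and none of the 4 output genes Usp2, Wee1, Nampt and Noct, were called in any comparison. The 19 tested genes other than those described here that the table assigns to the KEGG pathway Circadian rhythm, a list added after the data had been seen, gave Per1 higher with vehicle, and Prkab2 and Prkag2 higher and Rorb lower with lactate. Of the further genes under the GO term circadian regulation of gene expression, also added then, 2 of 31 tested with lactate were called, Ncor1 and Hdac3, both lower. Under the GO term circadian rhythm 1 of 30 was called with vehicle (Fas, higher), and with lactate 6 were higher and 4 lower of 30. Against sham 1.47% of all genes were called in either direction with vehicle and 12.3% with lactate. The KEGG and GO lists share genes with the 26 above, the called genes Per1, Rorb and Nfil3 among them.

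Per1, a repressor of the loop that also responds quickly to stimuli, rose with vehicle against sham. Its level was 24.9, 18.2, 17.5 and 12.2 CPM in sham mice and 41.9, 47.0, 89.5 and 35.2 CPM in vehicle mice, with no overlap. In lactate mice it was 26.6, 28.1, 16.9 and 27.2 CPM, below every vehicle mouse and overlapping with sham. The log2 fold change with vehicle against sham was 1.59 (SE 0.29, 3.01-fold higher, adjusted p = 0.0149 in edgeR with Benjamini-Hochberg adjustment). The adjusted p of that test was 0.0604, 0.0675 and 0.0613 in edgeR with Benjamini-Hochberg adjustment without sham mouse 2, 3 or 4. Lactate against sham gave 0.48 (SE 0.21) for Per1, with an adjusted p of 0.163 in edgeR with Benjamini-Hochberg adjustment. Lactate against vehicle gave -1.12 (SE 0.28, 2.18-fold lower), with an adjusted p of 0.449 in edgeR with Benjamini-Hochberg adjustment and of 0.0376 in DESeq2. The directions of Per1 and Per3 against sham with vehicle, 1.59 and -0.52, were opposite, and that of Per3 did not pass the test.

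Nfil3, a repressor that competes with DBP for D-boxes, read 2.64, 2.12, 3.80 and 3.70 CPM in sham mice. It read 5.24, 9.19, 20.2 and 6.31 CPM in vehicle and 5.003, 10.4, 4.48 and 5.22 CPM in lactate mice, above every sham mouse in both ischemic groups. With lactate it rose by 1.07 on the log2 scale (SE 0.31, adjusted p = 0.0389 in edgeR with Benjamini-Hochberg adjustment), a call that was lost when any sham mouse or lactate mouse 1 or 2 was left out (adjusted p 0.0511 to 0.121 in the same test), in limma voom (0.0766) and with all 12 mice in 1 fit (0.127). With vehicle the fitted difference was 1.77 (SE 0.41), with an adjusted p of 0.0552 in edgeR with Benjamini-Hochberg adjustment and 0.00196 in DESeq2. Without vehicle mouse 1 or 4 the edgeR value with Benjamini-Hochberg adjustment was 0.0195 or 0.0454. Rorb, a receptor that activates Arntl through ROR elements, read 28.1, 23.5, 19.7 and 27.8 CPM in sham, 12.9, 18.6, 14.2 and 12.8 CPM in vehicle and 10.7, 17.5, 13.1 and 16.6 CPM in lactate mice. All ischemic mice lay below all sham mice for Rorb. It fell by 0.74 with lactate (SE 0.18, adjusted p = 0.0173 in edgeR with Benjamini-Hochberg adjustment), a call lost without sham mouse 1 (0.0510), sham mouse 4 (0.0536) or lactate mouse 3 (0.0526). With vehicle the log2 difference of Rorb was -0.72 (SE 0.19), with an adjusted p of 0.0966 in edgeR with Benjamini-Hochberg adjustment and 0.0193 in DESeq2.

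**Figure D5:**
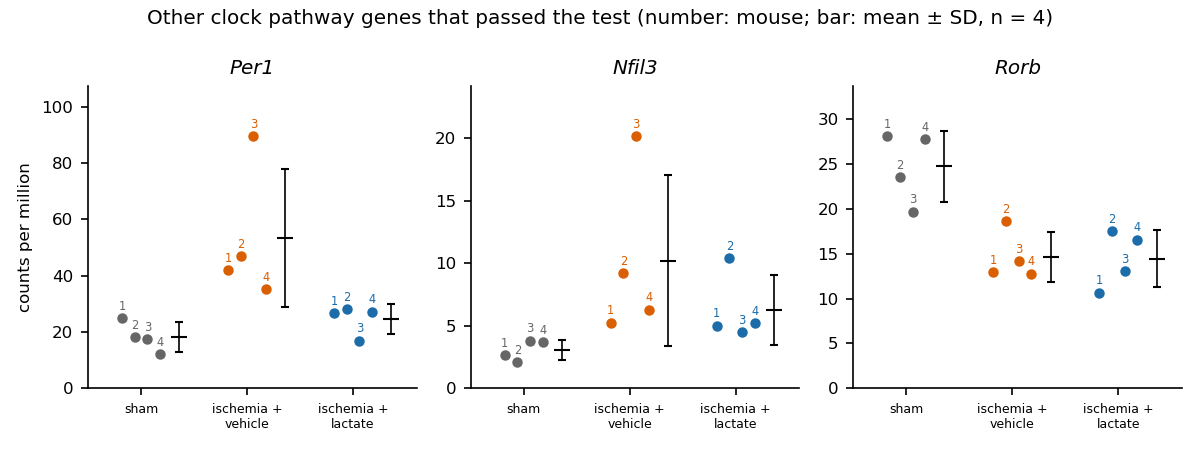
CPM of Per1, Nfil3 and Rorb (vertical axes, from 0) in the 4 mice of each group, numbered by mouse, with mean and SD as bars to the right. In the vehicle group Per1 lies above every sham and every lactate mouse, while Nfil3 lies above and Rorb below every sham mouse in both ischemic groups.

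The libraries differed in markers of regions and cells, and a lower level in whole tissue can mean fewer cells of a type or less RNA per cell, which cannot be told apart. The 7 markers of neurons summed to 4507 to 4821 CPM in sham, 3767 to 4445 CPM in lactate and 3709 to 3952 CPM in vehicle mice 2 to 4, beside 5578 CPM in vehicle mouse 1. All lactate mice thus lay below all sham mice in this sum, and so did vehicle mice 2 to 4. For Arntl and Ciart the lactate mice also lay below sham. Vehicle mice 2 to 4 did not, at 70.6 to 79.5 CPM of Arntl and 22.7 to 49.7 CPM of Ciart. Vehicle mouse 1 had the highest sum and the lowest Arntl of all mice, 34.9 CPM. No single neuron marker was called. The 4 hippocampal markers summed to 144 to 151 CPM in sham, 202 to 286 CPM in vehicle and 238 to 321 CPM in lactate mice, and 1 and 3 of 4 were called higher against sham. Most of that sum was Ociad2, at 119.8 to 131 CPM in sham, 163 to 251 CPM in vehicle and 207 to 263 CPM in lactate mice. Prox1, which was not called, went the other way with lactate. It read 1.89 to 2.44 CPM in sham, 1.31 to 3.89 CPM in vehicle and 0.811 to 1.98 CPM in lactate mice. The 5 striatal markers summed to 269 to 394 CPM in sham, 139 to 451 CPM in vehicle and 432 to 566 CPM in lactate mice, with Ppp1r1b called higher with lactate. The 5 markers of microglia did not overlap between any groups, at 141 to 167 CPM in sham, 112 to 127 CPM in vehicle and 170 to 190 CPM in lactate mice. Against sham P2ry12 and Cx3cr1 were lower with vehicle, and P2ry12 was lower and C1qa higher with lactate. The 5 neutrophil markers summed to 0.446 to 2.77 CPM in sham, 8.80 to 73.2 CPM in vehicle and 16.3 to 40.2 CPM in lactate mice, with S100a8 and S100a9 higher in both ischemic groups and Retnlg with lactate. Of 5 oligodendrocyte markers Cnp and Mog, and of 5 endothelial markers Slco1a4, were lower with lactate. The 6 astrocyte markers summed to 5984 to 9906 CPM in sham, 9301 to 11284.5 CPM in vehicle and 9313 to 11108 CPM in lactate mice, and none were called. Hemoglobin and Alas2 transcripts of red blood cells summed to 560 to 633 CPM in sham and 333 to 500 CPM in ischemic mice, with 4 of 5 lower with lactate. Vehicle mouse 2 held 1838 CPM of choroid plexus markers, 1817 CPM of them Ttr, against 1.36 to 19.2 CPM in the other mice, and Ttr was called higher with lactate against sham. The 6 hypothalamic markers summed to 12.9 to 17.0 CPM in sham, 19.0 to 30.1 CPM in vehicle and 22.0 to 33.0 CPM in lactate mice, with Agrp called higher in both ischemic groups. Of 5 markers of the suprachiasmatic nucleus, the seat of the central clock, 1 could be tested, and none of the 5 were at 0 in all mice. The part of these differences in the levels of Arntl, Ciart and Dbp was not tested.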

How the data were processed

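Brain RNA of 12 mice in 3 groups of 4 was analysed, with groups and mouse numbers from the labels. The authors removed short, low-quality and ribosomal RNA reads, mapped full-length non-chimeric reads with minimap2, polished them into isoforms (pinfish), and matched these to annotated transcripts (gffcompare). The deposited count values are reads per gene without normalization, and the deposited CPM values are the same counts divided by the total of each mouse by the authors. The build GRCm38 and DESeq 1.10.1 are named in the submitters' processing notes. How reads were counted per gene is not given in the sources used here. The deposited columns of the authors' own P values and fold changes were not used, and 4 lines without a gene were left out.

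Counts were scaled by TMM and tested with the quasi-likelihood test of edgeR 4.0.16 (R 4.3.3), in a separate fit of 8 mice for each pair of groups. Genes needed a CPM of 1 or more in 4 or more of those mice. P values were adjusted by Benjamini-Hochberg across every gene in the fit, and genes were called at an adjusted p under 0.05. SE is the log2 fold change divided by the square root of F, an approximation. Alternatives were DESeq2 1.42.0, limma 3.58.1 (voom with quality weights), RLE size factors, no filter, 1 fit of all 12 mice, a replicate block, only Ensembl genes, an unadjusted p under 0.05 with a change of at least 1.5-fold, and each mouse left out. The fits were tested on simulated data. Shared exons were read from GENCODE mouse release M21 (GRCm38). The clock genes and all lists were chosen with earlier results of these data known. The rule for naming genes took the 10 clock genes, every gene of the pathway list that was called, with Per1, and the 5 genes most like Dbp and Arntl. Genes named beyond it, Hlf, the 4 output genes, the called genes of the KEGG and GO lists and single markers, were picked with their values already known. Precision is limited by 4 mice per group and, for Per2, by few counts, and the reads carry no molecular identifiers. Summaries used pandas 2.3.3, numpy 2.4.6 and scipy 1.17.1 in Python 3.11.15, and figures matplotlib 3.10.9.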

Additional observations from a re-analysis of the deposited data

Results flagged for a closer look

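In 30 groups of 4 mice (10 clock genes in 3 groups), the highest or lowest mouse was set against the others by Dixon's ratio of gap to range, which chance alone passes in about 1 in 20 groups. It was passed 3 times. Dbp in vehicle mouse 1, at 36.1 CPM, stood far above the other 3 vehicle mice (12.6 to 14.2 CPM). Dbp in lactate mouse 4, at 31.4 CPM, stood above the other 3 lactate mice (14.0 to 16.5 CPM). Cry1 in lactate mouse 2, at 8.50 CPM, stood above the other 3 lactate mice (3.96 to 4.17 CPM).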

How the results depend on the processing

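Of the clock genes, 3 were called lower with lactate against sham with all mice, except in 1 fit of all 12 mice, which called 0, and under an unadjusted p under 0.05 with at least 1.5-fold, which called 2. With each mouse left out 1 to 3 were called. With vehicle against sham 0 were called lower, but 1 under limma voom, 1 under unadjusted p with 1.5-fold and 0 to 1 with each mouse left out. Between the ischemic groups 1 was lower under unadjusted p with 1.5-fold, and 0 otherwise. Over all genes, the calls in vehicle against sham were 250, with 476 in DESeq2, 395 in limma voom, 1620 under unadjusted p with 1.5-fold and 114 to 369 with each mouse left out. In lactate against sham they were 2123, with 1003 among Ensembl genes only and 1296 to 1934 with each mouse left out. In lactate against vehicle 1 gene was called, with 62 in DESeq2, 2 in limma voom, 2 without a filter, 2 among Ensembl genes only, 1085 under unadjusted p with 1.5-fold and 0 to 5 with each mouse left out. The causes were not tested.

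Some log2 differences near 0 changed sign. Under limma voom Arntl was 0.0506 in vehicle against sham. Without a filter Per3 was -0.0365 in lactate against sham. Between lactate and vehicle Dbp was 0.0063 in DESeq2, 0.35 in limma voom, 0.0021 with RLE size factors, 0.0908 with the replicate block and 0.0378 among Ensembl genes only, where Rorb was 0.0058. With each mouse left out, the range was -0.18 to 0.14 for Arntl and -0.18 to 0.31 for Ciart in vehicle against sham, and -0.23 to 0.41 for Per2 and -0.12 to 0.15 for Per3 in lactate against sham. Between lactate and vehicle it was -0.51 to 0.17 for Per2, -0.56 to 0.10 for Cry1, -0.0637 to 0.14 for Nr1d1, -0.33 to 0.54 for Dbp and -0.14 to 0.10 for Rorb.

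Mouse numbers are shared between groups but name different animals, and same-numbered mice correlated between -0.18 and 0.18, so they were not treated as pairs. With the replicate block, 3 clock genes were again called lower with lactate against sham and 0 in the other comparisons, with 198, 2281 and 1 genes called in all. Among the 10 clock genes, Per1, Rorb and Nfil3, only Nfil3 changed its calls, gained with vehicle (log2 fold change 1.63) and lost with lactate (1.02). Per2 had only 6 to 32 counts per mouse, and how far depth or the spread between mice set its wide intervals was not tested.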
